A study of Mus musculus with 6 samples.

Results

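Wnt6 and Wnt10a are neighbouring genes on mouse chromosome 1, both on the plus strand, and the peaks around them were described in 2 mouse Ewing sarcoma cell lines, ES48 and ES49. The pair lies in a window from 74700000 to 75000000 of the mm9 build, and every peak that touched this window was taken. That gave 41 of the 76477 peaks in 5 lists: 9 of 25970 ES48 H3K27ac peaks, 3 of 29652 ES49 H3K27ac peaks, 29 of 19560 ES49 H3K27me3 peaks, and 0 of 614 ES48 and 0 of 681 ES49 EWS-FLI1 peaks. The locus was chosen on these same lists, because H3K27ac of ES48 and H3K27me3 of ES49 met there. The values below are therefore a description, and none of them was tested. All positions are on chromosome 1 of mm9 unless another chromosome is named, and count from 1.

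The study mapped chromatin by ChIP-seq, the sequencing of DNA precipitated with an antibody, in murine Ewing sarcoma cells induced by EWS-FLI1 on a Balb/c background. EWS-FLI1 is the fusion of an RNA-binding protein with the ETS transcription factor FLI1 that drives Ewing sarcoma, and it was precipitated with a FLAG antibody in untreated ES48 and ES49 cells. H3K27ac was precipitated in both lines, and H3K27me3 in ES49. Each antibody had 1 library in each line where it was used, so there is no replicate error. Neither the number of tumours nor of clones behind a line is given in the labels. The input DNA of ES49 was not analysed here. The series holds no H3K27me3 sample of ES48, so every comparison of ES48 acetylation with H3K27me3 is between lines. Whether ES48 also carries H3K27me3 at the pair is therefore not known.

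Wnt proteins are secreted, lipid-modified signals that bind Frizzled receptors together with LRP co-receptors and, in the canonical branch, stabilise beta-catenin. Wnt6 and Wnt10a act in ectodermal organs and limbs, and in mesenchymal precursors both are known to favour bone over fat cell formation. Wnt10a is also required for normal teeth and skin appendages. Lysine 27 of histone H3 can carry an acetyl group or methyl groups, not both at once. Acetylation (H3K27ac) marks active promoters and enhancers, and trimethylation (H3K27me3) is laid down by Polycomb repressive complex PRC2, often over CpG-rich promoters of developmental genes that are silent.

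The ends of the genes were given approximately with the choice of the locus and not by an annotation of mm9: Wnt6 near 74818400 to 74832000, and Wnt10a near 74838000 to 74851000. Together they form a stretch of 32601 bp, called the pair below. In the RefSeq gene table, which is of another build and served for gene order alone, Stk36, Ttll4, Cyp27a1 and Prkag3 are the 4 protein-coding genes before Wnt6. No protein-coding gene starts between Wnt6 and Wnt10a in that table, and Cdk5r2, Fev, Cryba2 and Cfap65 follow. Fev encodes an ETS factor of serotonin neurons, and Cdk5r2 an activator of the kinase CDK5. These neighbours were not placed on mm9, and no peak below is assigned to them.

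The sequence just before the start of Wnt6 is shown because peaks of both marks covered that start. RefSeq gave an upstream sequence for 1 of the 2 members, on the plus strand of GRCm38.p6, and its 250 bases before the gene start are printed 5′ to 3′ with each CG dinucleotide in capitals.
Wnt6 upstream: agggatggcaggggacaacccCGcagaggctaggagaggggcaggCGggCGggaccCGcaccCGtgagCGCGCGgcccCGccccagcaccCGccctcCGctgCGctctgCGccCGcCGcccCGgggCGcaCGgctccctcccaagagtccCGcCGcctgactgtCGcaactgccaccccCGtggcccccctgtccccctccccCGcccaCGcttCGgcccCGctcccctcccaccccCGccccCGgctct
It holds 28 CG dinucleotides, and 7.61% of the 32851 upstream sequences of that length in the table hold as many or more. The median over the table was 6.0. Its G and C content was 79.6%, a level that 1.39% of the sequences reached, and CG was observed at 0.761 of the frequency that its C and G content would give. The letters GGAA, the core of ETS sites, were searched on both strands and occurred 0 times, while 93.4% of the table's sequences hold them. Such counts describe these letters and say nothing of binding.

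**Figure D1:**
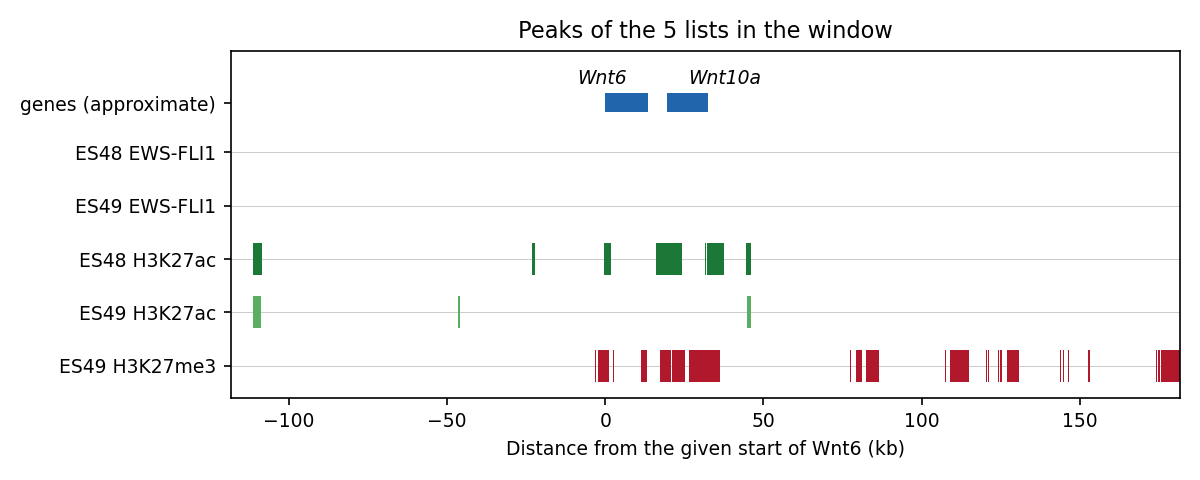
Peaks of the 5 lists across the window, drawn as bars along the distance in kb from the given start of Wnt6, with the approximate gene bodies on top. ES48 H3K27ac and ES49 H3K27me3 overlap in part at the pair, ES49 H3K27ac has no peak there, and both EWS-FLI1 rows are empty.

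Along the pair ES48 had H3K27ac peaks, and ES49 had H3K27me3 peaks and no H3K27ac peak. ES48 H3K27ac peaks covered 33.6% of the pair, ES49 H3K27ac peaks covered 0%, and ES49 H3K27me3 peaks covered 53.4%. Of the length under ES48 H3K27ac within the pair, 82.0% also lay under ES49 H3K27me3, and of the length under H3K27me3, 51.5% lay under ES48 H3K27ac. A further 40.5% of the pair was under a peak of neither list.

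Over the whole window 7 of the 9 ES48 H3K27ac peaks overlapped no ES49 H3K27ac peak, where 33.4% of the whole ES48 list did so. Of the 3 ES49 H3K27ac peaks in the window 1 had no ES48 counterpart, against 31.4% of the ES49 list. All 6 ES48 H3K27ac peaks at the pair overlapped ES49 H3K27me3, and 0 of the 3 elsewhere in the window did. Over the whole ES48 H3K27ac list 1.74% of peaks did. None of the 3 ES49 H3K27ac peaks met H3K27me3 of its own line, against 0.890% of its list. Among peaks in the upper 50% of their lists by score, 3 of 5 ES48 H3K27ac peaks in the window had no ES49 counterpart, and the same number met H3K27me3. The shares above are of the full lists, and those at this cut were not computed. Since the locus was picked for these overlaps, nothing is read from the distance between its counts and the lists' shares.

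Acetylation in the window covered 21.5 kb in ES48 and 4.28 kb in ES49, a ratio of 5.03. Over the whole lists the covered lengths were 48.3 and 35.8 Mb, a ratio of 1.35, so the ES48 list was the wider in general. Peaks are those that the authors' caller reported, with scores from 50 upward, and a place without a peak may hold the mark below that level. The depth of the libraries is unknown, as the deposited lists hold positions and scores without reads.

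At the Wnt6 start the marks overlapped but were shifted against each other. The ES48 H3K27ac peak ran from 74818060 to 74820280, 340 bp before and 1880 bp past the given start of the gene, with a width of 2221 bp and a score of 799.8. This score exceeded 56.0% of the ES48 H3K27ac list, and the width 70.1%. The ES49 H3K27me3 peak ran from 74816247 to 74819576, reaching 2153 bp before and 1176 bp past the start. It was 3330 bp wide with a score of 2472.8, above 98.2% of the H3K27me3 list. The peaks shared 1517 bp, which is 68.3% of the H3K27ac peak and 45.6% of the H3K27me3 peak. H3K27me3 began 1813 bp upstream of H3K27ac, and H3K27ac ended 704 bp further into the gene.

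The body of Wnt6 was the sparsest part of the pair. From 74820281 to 74834563, a gap of 14283 bp, ES48 had no H3K27ac peak. ES49 had 2 H3K27me3 peaks in that gap, which filled 15.8% of it. The first, from 74820945 to 74821262, was 318 bp wide and scored 56.3, close to the lowest score of the list. The other lay at the 3′ end of the gene, from 74829776 to 74831716, with a width of 1941 bp and a score of 496.5, and no H3K27me3 was called in the 8513 bp between them. Over the whole of Wnt6, ES48 H3K27ac covered 13.8% and ES49 H3K27me3 25.3%.

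Around the start of Wnt10a the marks coincided most closely. The widest ES48 H3K27ac peak of the window ran from 74836118 to 74842080, 1882 bp before and 4080 bp past the given start, and its width of 5963 bp exceeded 97.4% of the ES48 list. Its score was 3100, a value at which scores level off and which 19.6% of the ES48 H3K27ac peaks reached or passed. H3K27me3 of ES49 covered 98.8% of this peak with 2 peaks of its own, from 74835763 to 74839323 (score 1829.8) and from 74839397 to 74843729 (score 2441.4). The left edges of the peaks over the gene start lay 355 bp apart, with that of H3K27me3 upstream. Next to the widest peak, ES48 had a peak of 1540 bp from 74834564 to 74836103 (score 544.7), of which H3K27me3 covered 22.1%. With that peak counted, ES48 H3K27ac began 1199 bp upstream of the H3K27me3 peak at the gene start. ES48 also had a small peak of 360 bp from 74842131 to 74842490 (score 68.6), which H3K27me3 covered whole. In the 5999 bp between the genes H3K27ac covered 57.0% and H3K27me3 37.3%, and here the order of the marks was the reverse of that in either gene body.

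Inside Wnt10a acetylation was interrupted while H3K27me3 was nearly unbroken. ES48 had no H3K27ac peak from 74842491 to 74849770, a gap of 7280 bp, and 4 H3K27me3 peaks of ES49 filled 83.8% of that gap. Among them was the peak from 74845256 to 74848114, 2859 bp wide with a score of 1100.7, which met no ES48 H3K27ac. Over the gene as a whole H3K27me3 of ES49 covered 90.4% and H3K27ac of ES48 43.5%, with 98.7% of the H3K27ac lying inside H3K27me3.

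The third block spanned the 3′ end of Wnt10a. ES48 H3K27ac ran from 74850392 to 74855886, 5495 bp with a score of 3100, after a small peak from 74849771 to 74850373 that scored 97.8. The widest H3K27me3 peak of the window, 6417 bp from 74848154 to 74854570 with a score of 3100, covered 76.1% of the larger H3K27ac peak and all of the smaller. Only 1.23% of the H3K27me3 list reached that score, and its width exceeded 99.3% of the list. Both marks thus reached past the given end of Wnt10a, H3K27me3 by 3570 bp and H3K27ac by 4886 bp.

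**Figure D2:**
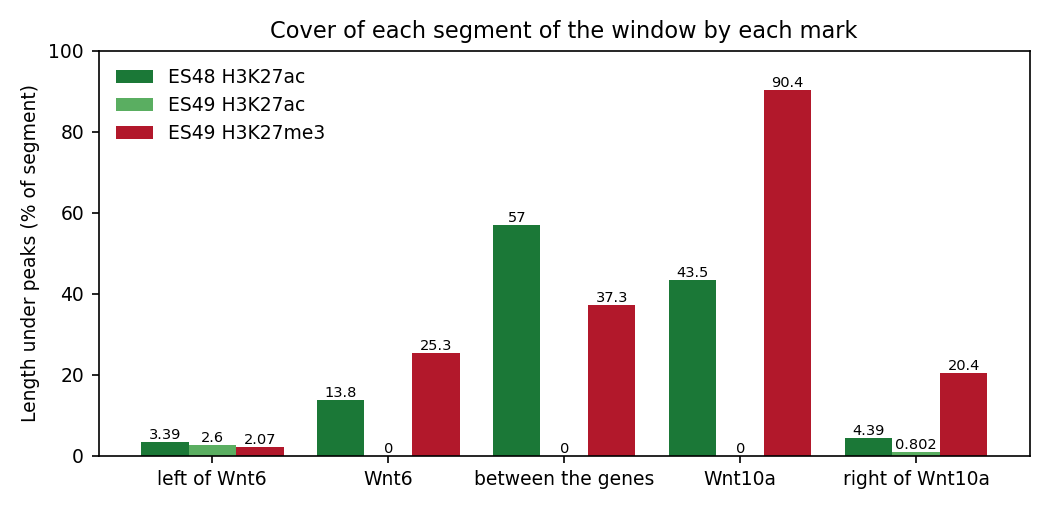
Share of each segment of the window under peaks, in percent of the segment's length, for ES48 H3K27ac, ES49 H3K27ac and ES49 H3K27me3. ES49 H3K27ac is at 0 over Wnt6, Wnt10a and the stretch between them, and ES49 H3K27me3 is highest over Wnt10a, at 90.4%.

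Borders were read from peaks of a list joined when less than 5 kb apart. ES49 H3K27me3 then formed 2 stretches at the pair, from 74815113 to 74821262 with 3 peaks at Wnt6 and from 74829776 to 74854570 with 6 peaks, the latter from the 3′ end of Wnt6 to past Wnt10a. ES48 H3K27ac formed 3, from 74818060 to 74820280, from 74834564 to 74842490 and from 74849771 to 74855886. The outer left border of H3K27me3 thus lay upstream of that of H3K27ac, and the outer right border of H3K27ac lay 1316 bp beyond that of H3K27me3. From the first base of H3K27me3 to the last base of H3K27ac, 40.8 kb in all, 31.6% was under both, 25.9% under H3K27me3 alone, 8.07% under H3K27ac alone and 34.4% under neither. The places with H3K27ac alone were 4 and none was longer than 1316 bp.

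In ES49 the nearest acetylation stood further from the left border of H3K27me3 than from the right. No ES49 H3K27ac was called from 74772388 to 74863109, a stretch of 90.7 kb around the pair. Its last peak on the left, from 74771797 to 74772387, was 591 bp wide, scored 135.9 and lay 42.7 kb before the first H3K27me3 peak. ES48 had no peak at that place, and its own last peak before Wnt6, from 74795272 to 74796169 with a score of 240.7, had no ES49 counterpart. On the right, the ES49 H3K27ac peak from 74863110 to 74864304 (score 510.5) began 8.54 kb past the end of H3K27me3. It lay wholly inside an ES48 peak from 74862936 to 74864590 (score 1207.7), which began 7.05 kb past the last H3K27ac of the pair.

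Away from the pair the lines had acetylation in common. The peak at 74863110 to 74864304 and the far left peak, from 74707071 to 74709844 in ES48 (score 3100) and from 74707053 to 74709542 in ES49 (score 1837.2), were the 2 places in the window acetylated in both. At the left place the lines shared 2472 bp, which was 89.1% of the ES48 peak and 99.3% of the ES49 peak. Scores rank peaks within a list, and were not compared between the lines. Just outside the window both lines had an H3K27ac peak 51.3 to 51.7 kb before its left end, and their next peaks on the right began at 75120477 in ES48 and 75120670 in ES49. Past the common right peak neither line had H3K27ac for 256 kb.

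H3K27me3 of ES49 did not stop at the pair, but beyond it met no acetylation of either line. To the left, none was called for 371 kb before the first H3K27me3 peak upstream of Wnt6, at 74815113. To the right, after a gap of 41.3 kb that holds the common H3K27ac peak, 20 more H3K27me3 peaks formed 6 stretches up to the end of the window. The widest peaks there ran from 74900715 to 74904886 (score 3082.9), from 74927449 to 74933524 (score 3100), from 74946158 to 74949124 (score 1219.7) and from 74993917 to 75000163 (score 3100). The last crossed the end of the window, and the next peak, 470 bp wide, began 395 bp past that end.

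The H3K27me3 peaks at the pair were mostly wide. Of the 8 there, 6 were among the widest 10% of the H3K27me3 list, with a median width of 3094.5 bp and a range of 318 to 6417. Of the 20 on the right 4 were in that widest 10%, with a median of 485.5 bp and a range of 255 to 6247, near the list's median of 500 bp. Of the 8 at the pair 4 overlapped ES48 H3K27ac, and of the 21 elsewhere in the window 0 did, while 2.90% of the whole H3K27me3 list did. The 4 overlapped ES48 and not ES49 acetylation, which 1.81% of the list did, and 0 of all 29 met ES49 H3K27ac, against 1.49% of the list. The 4 at the pair without ES48 H3K27ac were both peaks in the body and 3′ end of Wnt6 and both peaks in the acetylation gap of Wnt10a that did not reach its edges.

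**Figure D3:**
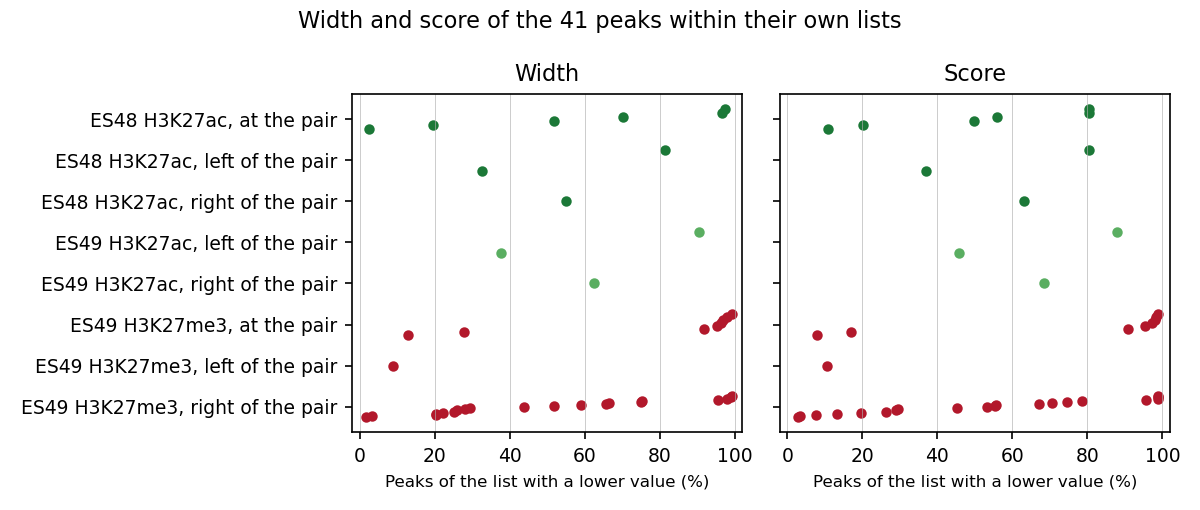
Each of the 41 peaks placed by the percentage of peaks in its own list that are narrower (left) or score lower (right), by mark, line and side of the pair. Of the 8 ES49 H3K27me3 peaks at the pair 6 lie above 90 in both panels, while ES48 H3K27ac peaks at the pair range from 2.54 to 97.4 in width.

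EWS-FLI1 had no called peak in the window in either line. The nearest in ES48 lay 395 kb before the pair, from 74423305 to 74423487, with a score of 54.7 against a lowest score of 50.1 in that list, and the nearest on the right lay 1.35 Mb away. In ES49 the nearest lay 794 kb past the pair, from 75644861 to 75645275 with a score of 78.6, and the nearest on the left 8.09 Mb away. On chromosome 1 the ES48 list held 42 EWS-FLI1 peaks and the ES49 list 57, of 614 and 681 in all. These few peaks compare with 5559 windows of 300 kb that hold a histone peak, so most windows hold no EWS-FLI1 peak. The exact share of windows without an EWS-FLI1 peak was not computed, and nothing is read from their absence here.

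To set the locus among others, all ES49 H3K27me3 peaks were joined at less than 5 kb into 6430 stretches, and the length of H3K27me3 that ES48 H3K27ac covered and ES49 H3K27ac did not was measured in each. Any such length was found in 318 stretches (4.95%). The stretch over Wnt10a came first, with 11.4 kb, which was 58.3% of its 19.5 kb of H3K27me3. The stretch at the Wnt6 start ranked 71, with 1.52 kb, 38.4% of its 3.95 kb. The locus was chosen for this pattern, so its rank describes the choice and supports nothing.

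The 5 stretches most like it by that length lay on other chromosomes. The closest was on chromosome 2 from 93010016 to 93037513, with 6.84 kb, and 19.7 kb of H3K27me3 in all, about as much as the stretch over Wnt10a. Next were chromosome 12 from 120074248 to 120090177 with 4.40 kb, chromosome 13 from 99120888 to 99139078 with 4.16 kb, chromosome 11 from 4163403 to 4168727 with 4.07 kb and chromosome 11 from 96844302 to 96889500 with 3.73 kb. They differed in how much of their H3K27me3 this was, from 9.76% in the last to 97.3% in the one before it. ES49 H3K27ac was at 0 in 4 of them, and covered 0.623 kb in that on chromosome 13. They are named by position because no mm9 annotation was used, and the other Wnt genes were not analysed here for the same reason.

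Among 5559 windows of 300 kb with at least 1 histone peak, the window of the pair held 50.3 kb of H3K27me3, and 0.917% of windows held as much or more, itself included. Its excess of ES48 over ES49 H3K27ac was 17.2 kb, which 2.36% of windows reached. As much of both was found in 2 windows, the pair's among them (0.0360%). H3K27me3 under ES48 and not ES49 H3K27ac came to 12.9 kb, which no other window reached (0.0180% of windows, this 1 alone). The window was chosen for this pattern, so these shares describe the choice and support nothing.

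**Figure D4:**
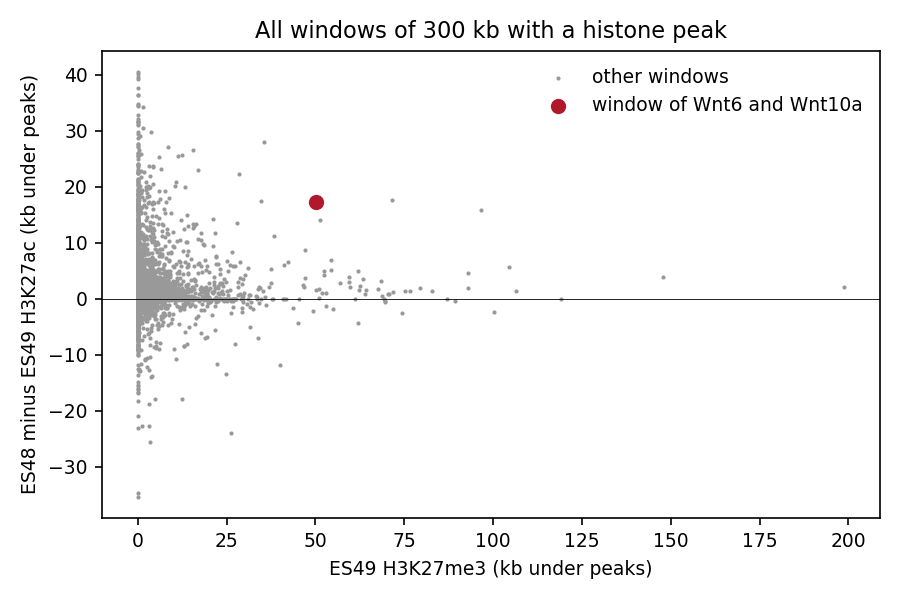
Each of 5559 windows of 300 kb, by the length under ES49 H3K27me3 peaks in kb (horizontal) and the length under ES48 less that under ES49 H3K27ac peaks in kb (vertical). The window of Wnt6 and Wnt10a, at 50.3 and 17.2 kb, lies apart from most windows, which hold little H3K27me3.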

How the data were processed

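The series has 6 samples, and the deposited peak lists of 5 were analysed, each from 1 library. Per the submitters' processing notes, the tools were Bowtie 1.1.1 and SAMtools 1.2 and the build was mm9. Peak names in the files point to a MACS program, for which the sources used here give no version, settings or control. Each deposited list holds a position and the caller's score per peak, which levels off at 3100. The scale of the score is not stated, so scores were compared within a list alone.

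The members and the settings were chosen with earlier results of these data known. An overlap meant at least 1 bp in common. Gene ends were those given with the locus. Windows of 300 kb were laid from the start of each chromosome, without overlap, and those without a histone peak were left out. The regions named as most alike are the 5 H3K27me3 stretches with the longest H3K27me3 under ES48 and not ES49 H3K27ac. As alternatives, an overlap had to reach 50% of the shorter peak, or a distance of up to 1 kb counted as a match, or lists were cut to their upper 50% by score. Others were joining at 2 and 10 kb, the pair widened by 5 kb, and ranking by the difference of H3K27ac. The interval functions were tested on simulated data and against bedtools 2.31.1. Computation used Python 3.11.15, numpy 2.4.6 and matplotlib 3.10.9. The gene tables at hand are of GRCm38, so other Wnt genes were not placed on mm9, and the planned protein comparison was not run.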

Additional observations from a re-analysis of the deposited data

How the results depend on the processing

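Of 55 values under other settings 38 kept their main value, or for counts and ranks stayed within 1.5 times it. Some of the 38 could not change. The number of ES48 peaks in the window does not depend on the overlap rule, and an overlap count of 0 stays 0 when lists are cut. When lists were cut to their upper 50% by score, 5 of the 9 ES48 H3K27ac peaks stayed in the window. Of these 3 had no ES49 match and 3 met H3K27me3, and ES49 H3K27ac without an ES48 match fell to 0 peaks. Shares over the whole lists were not computed at this cut. H3K27ac then covered 25.9% of the pair and H3K27me3 51.3%, 90.8% of that H3K27ac lay under H3K27me3, and the left border of H3K27me3 moved to 74816247. With the pair widened by 5 kb on each side the shares were 38.0%, 55.0% and 79.7%. Joined at less than 10 kb, ES48 H3K27ac formed 2 stretches and ended at 74864590, and H3K27me3 formed 1. Joined at less than 2 kb, H3K27me3 formed 3. The stretch at the Wnt10a start ranked 1 in each ranking run: by the difference of H3K27ac, joined at 2 and 10 kb, and with the upper 50% by score. That at the Wnt6 start ranked 45 by the difference of H3K27ac. It ranked 1 when joined at less than 10 kb, where it is the same stretch as that of Wnt10a. The locus was chosen for this pattern, so all these ranks describe the choice and support nothing. ES49 H3K27ac at the pair was also 0% with the pair widened and with the upper 50% by score. Both outcomes were fixed in advance. Cutting a list adds no peak, and the widened pair lies within the 90.7 kb without ES49 H3K27ac. No paired analysis was possible because each group holds 1 library. Depth is unknown, so a missing peak cannot be told from a weak one.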
